A study of Rattus norvegicus with 72 samples.

Results

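Expression of 10 genes of the surfactant system and of the type II pneumocyte was followed across 72 rat lungs. The genes were taken by symbol from a table of 30042 genes, and all 10 were found: Sftpa1, Sftpb, Sftpc, Sftpd, Abca3, Slc34a2, Nkx2-1, Lpcat1, Napsa and Lamp3. The lungs came from adult male Sprague-Dawley rats that inhaled diesel exhaust particles (DEP) as an aerosol, or filtered air alone, in whole-body chambers, for 6 hours on each of 4 days. The animals were killed 1, 7 or 27 days after the last session. At each day 6 rats had been given 1000 ug/m3 and 6 had been given 200 ug/m3. Another 12 had breathed air only, 6 with an H and 6 with an L in the sample title. The exposed animals carry H at 1000 ug/m3 and L at 200 ug/m3, so they were compared with air H and air L of the same day. What H and L stand for, and whether both sets were handled together, is not in the labels. Each library was made from RNA of a piece of whole lung, so fewer cells of a type and less RNA per cell cannot be told apart in any value below.

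Pulmonary surfactant is a film of phospholipid and protein that lowers surface tension in the alveolus and keeps it open on expiration. Type II pneumocytes, cuboidal cells in the alveolar corners, make the lipid, pack it with the hydrophobic proteins SP-B and SP-C into lamellar bodies and secrete it. They take up used surfactant again together with alveolar macrophages, and they renew the flat type I cells of the gas exchange surface. The factor NKX2-1 acts with FOXA and C/EBP factors at the promoters of several surfactant genes, and inhaled particles deposit in the same alveoli.

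All 10 genes had counts in every library. Together they made up between 1.42% (1000 ug/m3, day 1) and 2.06% (1000 ug/m3, day 7) of all counts in the group means. The lowest count of any of them was 6, for Nkx2-1 in animal 045. That animal and 2 others of the 1000 ug/m3 groups, 037 at day 7 and 024 at day 27, had the only totals under 500000 counts (149004, 105453 and 439393). The remaining totals lay between 1042336 and 2397971 at day 1, between 3471134 and 6279763 at day 7 and between 3761631 and 6520180 at day 27. Day 1 and low depth therefore cannot be told apart. Levels are given as CPM, the count of a gene relative to the library total, scaled by TMM factors over the 72 libraries, which correct for the make-up of each library. They are compared between groups for 1 gene at a time, since CPM is not corrected for gene length.

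The 3 genes that separated the air sets of day 7 below are shown by the 250 bases before their annotated start (RefSeq, build GRCr8), because Nkx2-1 encodes a factor that acts on surfactant promoters. Such an entry was found for 7 of the 10 genes. Sftpc, Sftpd and Napsa are named only. Capitals mark matches, on either strand, to the letters CTCAAG, a core bound by NKX2-1, to TGTTTNC, a core of FOXA sites, and to TTGCNNAA, a form of the C/EBP site. The sequences run 5′ to 3′ on the gene's strand. The Sftpb window is chr4:105917338-105917587 (plus strand), that of Slc34a2 is chr14:62143073-62143322 (minus strand) and that of Nkx2-1 is chr6:79734868-79735117 (minus strand). The Slc34a2 and Nkx2-1 windows and the end of the Sftpb window lie within the annotated span of the gene, whose outermost start is another.
Sftpb: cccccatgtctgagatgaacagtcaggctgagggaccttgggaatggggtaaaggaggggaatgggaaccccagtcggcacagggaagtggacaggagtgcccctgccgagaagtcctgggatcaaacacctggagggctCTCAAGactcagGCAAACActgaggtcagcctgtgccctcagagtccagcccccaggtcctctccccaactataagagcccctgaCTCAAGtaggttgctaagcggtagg
Slc34a2: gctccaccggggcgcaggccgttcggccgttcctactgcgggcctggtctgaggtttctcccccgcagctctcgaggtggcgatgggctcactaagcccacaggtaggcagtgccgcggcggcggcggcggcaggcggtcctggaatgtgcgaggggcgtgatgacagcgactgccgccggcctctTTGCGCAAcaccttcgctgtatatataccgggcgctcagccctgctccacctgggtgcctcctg
Nkx2-1: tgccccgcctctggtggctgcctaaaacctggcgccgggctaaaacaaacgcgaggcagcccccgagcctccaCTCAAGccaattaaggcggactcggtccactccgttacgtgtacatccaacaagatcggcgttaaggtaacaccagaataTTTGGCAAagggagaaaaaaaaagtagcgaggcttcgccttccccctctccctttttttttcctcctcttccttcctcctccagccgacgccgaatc

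Sftpb, which encodes SP-B, held the NKX2-1 letters at -110 and again at -25, counted from the start, and the FOXA letters on the reverse strand at -98. Nkx2-1 held the NKX2-1 letters at -177 and the C/EBP letters on the reverse strand at -97. Slc34a2 held the C/EBP letters at -64 in a palindrome that reads the same on both strands. Of the genes not shown, Sftpa1 matched the C/EBP letters at -194 and Lamp3 the FOXA letters at -120, and the windows of Abca3 and Lpcat1 held none of the 3. The 3 words did not overlap in these windows. In all, 2 of 7 windows held the NKX2-1 letters, 2 the FOXA letters and 3 the C/EBP letters. Among 33465 promoter windows of the same length the shares were 13.3%, 18.3% and 9.22%. A match describes the letters of the window and is not a measured binding site.

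The question of the study was how the lung transcriptome differed after inhaled DEP, by concentration and time. For these 10 genes, no exposed group passed the test against its air group. Differences are log2 fold changes from edgeR's quasi-likelihood test, with p-values adjusted over all genes of the fit by Benjamini-Hochberg and called under 0.05. Over 6 comparisons 0 of 10 genes were called in each. The background was as low. Of all genes, 0% were called in the 3 comparisons at 1000 ug/m3, 0% at 200 ug/m3 on days 1 and 27, and 0.00698% at 200 ug/m3 on day 7. The smallest adjusted p among the 60 values was 0.352. An unadjusted p under 0.05 was reached by 5 of the 60, and 24 of the 60 were positive. Of the 5, 3 were at 200 ug/m3 on day 27, where 9.69% of all genes reached it. In each of the other comparisons 3.41% to 7% of all genes did. For 58 of the 60 values the 95% interval stayed within a fold of 1.5 above and below air, and for all 60 within a fold of 2. The plot of exposure effects shows the 60 values with their intervals.

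**Figure D1:**
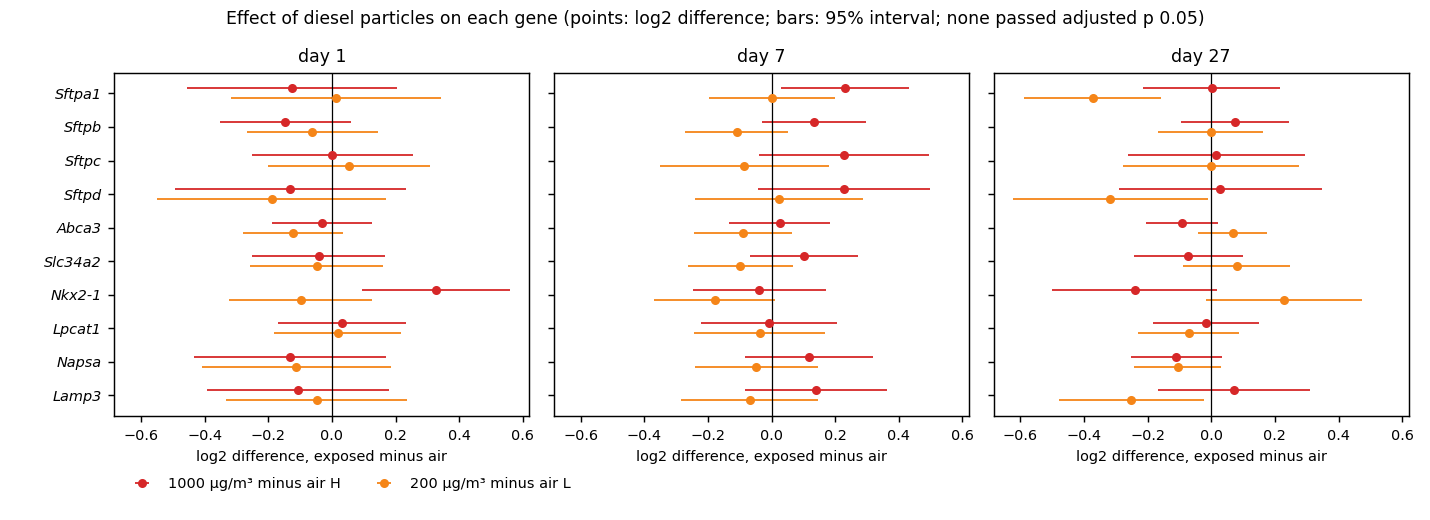
Log2 difference of each gene between exposed and air lungs (x axis) for the 10 genes (y axis) at days 1, 7 and 27, with 6 animals per group. Red points are 1000 ug/m3 minus air H, orange points 200 ug/m3 minus air L, and bars are 95% intervals; all 60 points lie between -0.37 and 0.33, and 0 passed the adjusted threshold of 0.05.

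The collectins came first among the surfactant proteins. SP-A and SP-D, encoded by Sftpa1 and Sftpd, bind sugars on microbes and particles and aid their clearance by macrophages. Sftpa1 at day 27 ran from 3055 to 5228 CPM after 200 ug/m3 (median 4485) and from 4291 to 6698 CPM in air L (median 5848). The means were 4417 ± 743 and 5746 ± 820 CPM (SD, n = 6 each). All 6 exposed animals lay below 5 of the 6 air animals, and the groups overlapped through animal 085 of air L at 4291 CPM. The log2 difference was -0.37 (SE 0.10, unadjusted p = 0.00136, adjusted p = 0.352), the smallest adjusted p of the 60 values. DESeq2, another count test, called it (-0.37, adjusted p = 0.0461). At day 7 after 1000 ug/m3 Sftpa1 was 5771 ± 763 CPM against 4908 ± 455 CPM in air H, a log2 difference of 0.23 (SE 0.10, unadjusted p = 0.0255, adjusted p = 1.00). Without the shallow library of animal 037, whose Sftpa1 level of 7072 CPM was the highest of the 72, the value was 0.17.

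Sftpd had the same signs as Sftpa1 in these 2 comparisons. At day 27 it ran from 414 to 747 CPM after 200 ug/m3 (median 574) and from 465 to 837 CPM in air L (median 761), and the log2 difference of -0.32 (SE 0.15) had an adjusted p of 0.502. At day 7 it was 833 ± 90.8 CPM after 1000 ug/m3 and 708 ± 59.6 CPM in air H (0.23, SE 0.13, adjusted p = 1.00). Neither comparison separated the animals of its groups. Of all genes 0.341% were separated in the first and 0.261% in the second.

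The hydrophobic proteins spread the lipid film at the air-liquid surface, and SP-B is needed to form lamellar bodies at all. Sftpb differed from air by log2 values between -0.15 (1000 ug/m3, day 1) and 0.13 (1000 ug/m3, day 7). Sftpc, a transcript restricted to type II cells in the adult lung, differed by -0.09 (200 ug/m3, day 7) to 0.23 (1000 ug/m3, day 7). At day 7 Sftpc stood at 8002 ± 1191 CPM after 1000 ug/m3, the highest of its 12 group means, and at 6860 ± 1249 CPM in air H. The ranges, 6089 to 9296 and 4655 to 7932 CPM, overlapped (SE 0.13, adjusted p = 1.00).

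The remaining genes of lipid transport and processing mostly had smaller differences. Abca3, the pump that loads phospholipid into lamellar bodies, lay between -0.12 and 0.07. Lpcat1, which remodels phosphatidylcholine to its disaturated surfactant form, lay between -0.07 and 0.03. Lamp3, a membrane protein of lamellar bodies, had -0.25 (SE 0.11, adjusted p = 0.484) after 200 ug/m3 at day 27 and lay between -0.11 and 0.14 elsewhere. Napsa, an aspartic protease that processes pro-SP-B, lay between -0.13 and 0.12. Slc34a2, the phosphate transporter of the apical membrane that takes back phosphate freed from used lipid, lay between -0.10 and 0.10. None of these 5 passed in any of the 6 comparisons. Their groups of 6 animals overlapped in all of them, as did those of most genes. Of all genes 0.221% to 0.568% were separated in these comparisons.

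Nkx2-1 is the transcription factor of the set, and its effects ran from -0.24 to 0.33. At day 1 its levels were 106, 123 and 149 CPM (lowest, median and highest) after 1000 ug/m3 and 78.6, 90.1 and 139 CPM in air H. The log2 difference was 0.33 (SE 0.12, unadjusted p = 0.00716, adjusted p = 1.00). At day 27 the levels were 37.5, 74.1 and 86 CPM after 1000 ug/m3 and 82.9, 90.6 and 106 CPM in air H, with a log2 difference of -0.24 (SE 0.13, adjusted p = 0.716). All 6 exposed animals were above the mean of air H at day 1 and all 6 below it at day 27, while the ranges overlapped at both days. The lowest value of day 27 rests on 6 counts in a shallow library, and without the libraries of animals 024 and 045 the difference was -0.21. After 200 ug/m3 it was -0.10 at day 1, -0.18 at day 7 and 0.23 (SE 0.12) at day 27. Against both air groups of day 7 pooled, Nkx2-1 after 1000 ug/m3 was called (-0.36, adjusted p = 0.00912), where 1343 of 14331 genes were called as well. The air groups themselves differed at that day, as the next comparison gives.

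Averaged over the 6 comparisons, each gene's effect lay between -0.07 (Napsa) and 0.03 (Sftpc). For 9 of 10 genes the mean was negative, as for 53.8% of all genes. Of the 10 genes 0 were called against a background of 0.0134% of 14956 genes, and all 10 intervals excluded a fold of 1.5. The median was -0.04, beside -0.01 over all genes. The difference between the effects of the 2 concentrations was tested directly. It passed for 0 of 10 genes at each day, against backgrounds of 0.00813%, 0% and 0% at days 1, 7 and 27, with an unadjusted p under 0.05 for 1, 1 and 3 of them, beside 4.36%, 5.21% and 13.3% of all genes. DESeq2 and limma-voom called 0 as well. At day 7 the effect of 1000 ug/m3 exceeded that of 200 ug/m3 in 10 of 10 genes, by 0.03 (Lpcat1) to 0.31 (Sftpc) with a median of 0.20, beside -0.00252 over all genes, and the smallest adjusted p was 0.934. Of all genes 49.4% had that sign. Most of these genes vary together between animals, as given below, so their signs are not separate observations. At day 27 Nkx2-1 had -0.47 (SE 0.17, adjusted p = 0.251) and Sftpa1 had 0.38 (SE 0.15, adjusted p = 0.282). These differences use all 4 groups of a day, including the air sets.

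Between the air H and air L animals 3 genes of the set passed the test, Nkx2-1, Slc34a2 and Sftpb, and Nkx2-1 did so at every day. At day 1, Nkx2-1 was lower in air H than in air L, with 78.6, 90.1 and 139 CPM (lowest, median and highest) against 138, 142 and 145 CPM. The log2 difference was -0.51 (SE 0.11, adjusted p = 0.0236). The ranges overlapped through a single H animal, 003, and the other 5 lay at or under 119 CPM. The 6 air L animals formed the narrowest of the 12 groups for this gene, with an SD of 2.64% of the mean. Counting alone was expected to give a log2 SD of 0.11 at day 1, which is wider. The narrow spread is therefore not read as a trait of these animals. No other gene of the set was called at day 1, so the count was 1 of 10 against a background of 1.68% of 12304 genes.

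At day 7 the difference covered 3 genes, all lower in air H. Nkx2-1 ran from 60.3 to 84.7 CPM in air H (median 72.7) and from 97.1 to 127 CPM in air L (median 113), a log2 difference of -0.64 (SE 0.10, adjusted p = 6.07e-06). Slc34a2 ran from 1198 to 1637 CPM (median 1418) against 1732 to 2249 CPM (median 2039), a difference of -0.51 (SE 0.08, adjusted p = 1.54e-05). Sftpb ran from 1729 to 2065 CPM (median 1846) against 2148 to 2371 CPM (median 2264), a difference of -0.28 (SE 0.08, adjusted p = 0.00922). For each of the 3 genes every air H animal lay below every air L animal, a separation found in 13.4% of all genes at that day. Called genes made up 25.5% of the 14331 tested, so 3 of 10 is close to the background. Of the 10 genes 9 had negative values, as had 47.5% of all genes, with a median of -0.17 beside 0.01 over all genes. Abca3 (-0.18, adjusted p = 0.0854) and Napsa (-0.23, adjusted p = 0.0795) did not pass, and Sftpc and Sftpd had -0.01 and 0.10.

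The exposed sets of day 7 differed in 2 of these genes. Nkx2-1 was lower after 1000 than after 200 ug/m3 by -0.50 (SE 0.10, adjusted p = 0.000344), with 59.5, 72.3 and 104 CPM against 84.6, 97 and 120 CPM. The highest of the 1000 ug/m3 values belonged to the shallow library of animal 037 and rests on 12 counts. The other 5 lay at or under 78.1 CPM, below all 6 animals at 200 ug/m3, and the difference without that library was again -0.50. Slc34a2 was lower by -0.31 (SE 0.08, adjusted p = 0.00552), with 1394, 1543 and 1622 CPM against 1583, 1814 and 2242 CPM, ranges that overlapped narrowly. Sftpb had -0.03 (95% interval -0.20 to 0.13) and did not pass, while Sftpc (0.31, adjusted p = 0.0821) and Sftpd (0.30, adjusted p = 0.0928) had positive values that did not pass. The count was 2 of 10 against 27.9% of all genes. In this comparison concentration and letter cannot be told apart.

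At day 27 the order of the air sets was the other way round for Nkx2-1. Air H ran from 82.9 to 106 CPM (median 90.6) and air L from 59.2 to 86.1 CPM (median 69.9), a log2 difference of 0.38 (SE 0.12, adjusted p = 0.0337). The call was lost with no filter on low counts (0.37, adjusted p = 0.0615). Slc34a2 had 0.20 (SE 0.08) with an adjusted p of 0.0999. The other 8 genes had adjusted p-values of 0.25 or more, and the count was 1 of 10 against a background of 14%. Between the exposed sets 0 of 10 genes were called at days 1 and 27, where 0% of all genes were called. There Nkx2-1 had -0.09 at day 1 (adjusted p = 0.781) and -0.09 at day 27 (adjusted p = 0.920), the latter opposite in sign to air.

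**Figure D2:**
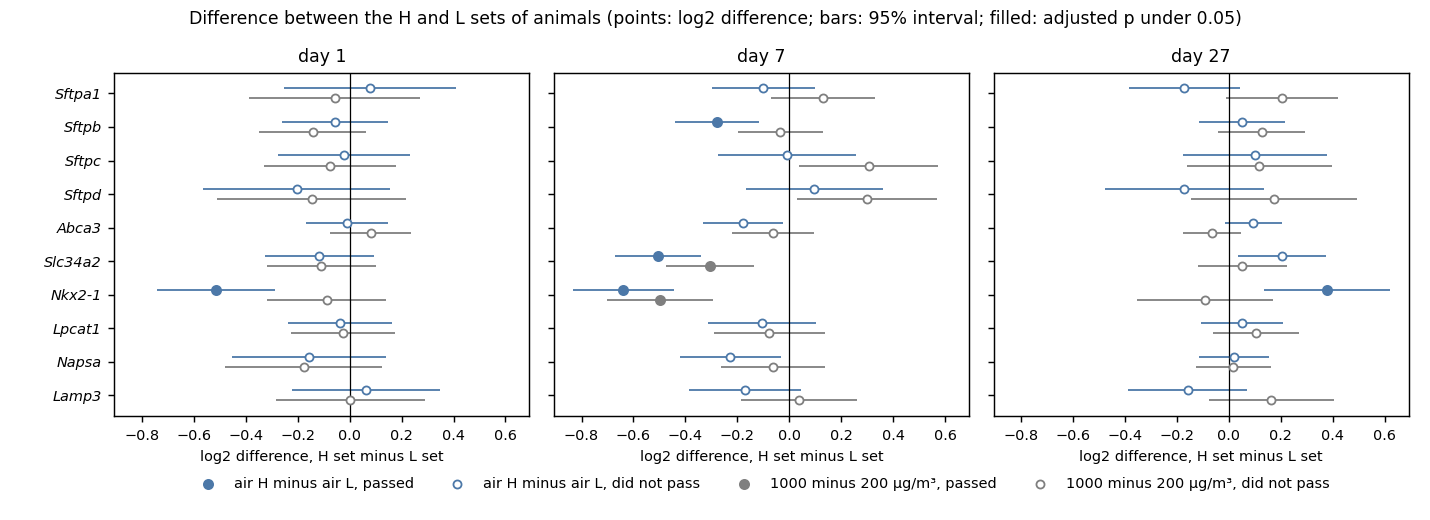
Log2 difference between H and L animals (x axis, H minus L) for the 10 genes (y axis) at days 1, 7 and 27, in air lungs (blue) and between 1000 and 200 ug/m3 (grey), with 95% intervals. Filled points passed an adjusted p of 0.05: Nkx2-1 in air at all 3 days, with opposite sign at day 27, Slc34a2 in both pairs at day 7 and Nkx2-1 in the exposed pair at day 7, and Sftpb in air at day 7.

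The change of the air difference between days was tested as an interaction in a fit of all 72 libraries. From day 7 to day 27 the signed H minus L difference changed by 1.03 for Nkx2-1 (SE 0.16, adjusted p = 1.97e-07) and by 0.72 for Slc34a2 (SE 0.13, adjusted p = 1.14e-05). It changed by 0.34 for Sftpb (SE 0.13, adjusted p = 0.0414) and by 0.28 for Abca3 (SE 0.10, adjusted p = 0.0207). All 4 went from a negative to a positive value. In the fits of single days Nkx2-1 went from -0.64 to 0.38 and Slc34a2 from -0.51 to 0.20. Sftpb went from -0.28 to 0.05 and Abca3 from -0.18 to 0.09. These 4 of 10 stand against a background of 29% of 14956 genes. From day 1 to day 7 the difference changed for Slc34a2 alone among the 10, by -0.41 (SE 0.13, adjusted p = 0.0237), against a background of 18.1%. The call of Sftpb was lost under 4 alternatives, among them the fit without the 3 shallow libraries (0.32, adjusted p = 0.0577), and that of Abca3 was lost with library totals in place of TMM factors (0.23, adjusted p = 0.0519) and with no filter on low counts (0.25, adjusted p = 0.0654). With no such filter the change of Slc34a2 from day 1 to day 7 was -0.38 (adjusted p = 0.0533).

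Days were compared within each air set. Sftpc ran from 3642 to 5588 CPM at day 1 in air H and from 4655 to 7932 CPM at day 7. In air L it ran from 4050 to 4783 CPM at day 1 and from 5556 to 8030 CPM at day 7, with no overlap. The log2 difference between day 7 and day 1 was 0.66 in both sets (SE 0.14 each, adjusted p = 8.75e-05 in air H and 0.000334 in air L). Sftpc means of the exposed groups were 4320 and 8002 CPM at 1000 ug/m3 and 4536 and 6494 CPM at 200 ug/m3 on these days. All 12 Sftpc group means therefore fell into a day 1 level of 4320 to 4536 CPM and later levels of 5594 to 8002 CPM. The libraries of day 1 were also the least deep, and the part of depth in this difference was not tested.

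Nkx2-1 went the other way. It was lower at day 7 than at day 1 by -0.48 in air H (SE 0.12, adjusted p = 0.000954) and by -0.34 in air L (SE 0.12, adjusted p = 0.0359). In air H, Slc34a2 was lower at day 7 as well (-0.37, SE 0.09, adjusted p = 0.00137), which gave 1 gene higher and 2 lower of 10 against a background of 36.1%. In air L, Abca3 (0.30, SE 0.07, adjusted p = 0.00155) and Sftpb (0.26, SE 0.09, adjusted p = 0.0426) were higher, which gave 3 higher and 1 lower of 10 against 14.5%. In air L every animal of day 7 lay above every animal of day 1 for these 3 genes and below it for Nkx2-1, a separation found in 6.5% of all genes. The Sftpb call was lost with DESeq2 (0.24, adjusted p = 0.0621), with its size factors (0.24, adjusted p = 0.0665) and without the shallow libraries (0.26, adjusted p = 0.0554). That of Nkx2-1 in air L was lost with library totals (-0.31, adjusted p = 0.0562) and with no filter on low counts (-0.32, adjusted p = 0.0779).

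From day 7 to day 27 the air sets moved in opposite directions for Nkx2-1 and Slc34a2. In air H, Slc34a2 (0.39, SE 0.09, adjusted p = 0.000958) and Nkx2-1 (0.34, SE 0.11, adjusted p = 0.0146) were higher at day 27, 2 of 10 genes against 26.6%. In air L, Nkx2-1 (-0.68, SE 0.11, adjusted p = 4.13e-06), Slc34a2 (-0.33, SE 0.09, adjusted p = 0.00795), Sftpb (-0.27, SE 0.09, adjusted p = 0.0304) and Abca3 (-0.21, SE 0.07, adjusted p = 0.0279) were lower, 4 of 10 against 16.6%. The groups of air L did not overlap for Nkx2-1, Sftpb and Abca3, as in 10.1% of all genes. With a filter of at least 1 CPM in 6 libraries Sftpb (-0.25, adjusted p = 0.0523) and Abca3 (-0.19, adjusted p = 0.0569) did not pass. With no filter the adjusted p-values were 0.0816 and 0.0922, and with library totals Abca3 had -0.18 (adjusted p = 0.0554). Nkx2-1 in air L thus fell from a mean of 142 CPM at day 1 to 112 CPM at day 7 and 69.5 CPM at day 27, while in air H it went from 99.97 to 71.8 and back to 91.2 CPM. These day contrasts share the air groups of day 7 with each other and with the comparison of the air sets, so they are not separate evidence.

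**Figure D3:**
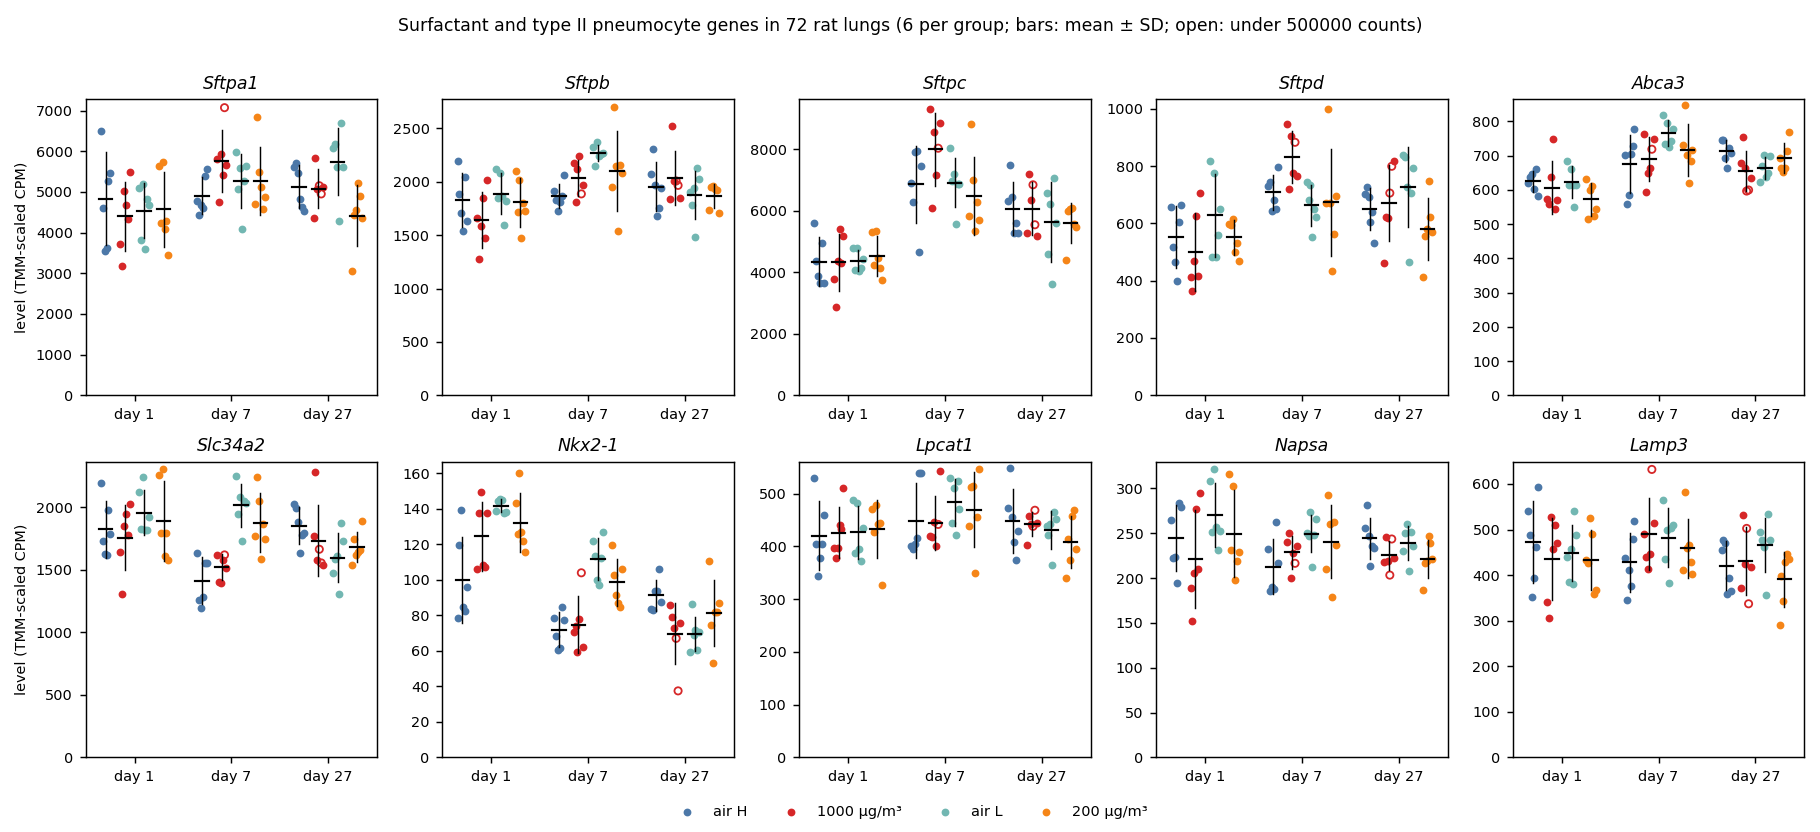
Level of each of the 10 genes in TMM-scaled CPM (y axis, from 0) in every animal of the 12 groups, ordered by day (x axis) and coloured by group, with the mean (horizontal bar) and SD (vertical bar) of 6 animals. Open circles are the 3 libraries under 500000 counts; Sftpc lies between 4320 and 4536 CPM in all 4 group means of day 1 and at 5594 CPM or above later, and Nkx2-1 in air L goes from 142 to 69.5 CPM.

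Across the 12 groups the means of a gene spanned less than a fold of 2 for all genes but Nkx2-1. The ratio of the highest to the lowest group mean was 1.18 for Lpcat1, 1.25 for Lamp3, 1.27 for Napsa, 1.31 for Sftpa1, 1.34 for Abca3, 1.38 for Sftpb and 1.42 for Slc34a2. It was 1.67 for Sftpd, 1.85 for Sftpc and 2.04 for Nkx2-1. When the group means were put in order, each of the 11 neighbouring pairs differed by less than the larger of their SDs in 9 genes. The exception was Sftpc, where 10 of 11 did and the step from 4536 CPM (200 ug/m3, day 1) to 5594 CPM (200 ug/m3, day 27) was larger. Neighbours among 12 ordered means lie close by construction, so this comparison is no test of differences between groups. The 1000 ug/m3 group of day 7 had the highest mean for Sftpa1, Sftpc, Sftpd and Lamp3, and air L of day 7 for Sftpb, Abca3, Slc34a2 and Lpcat1. The day 1 group of air L had the highest mean for Nkx2-1 and Napsa. The lowest mean of Sftpa1, Sftpb, Sftpc and Sftpd was that of 1000 ug/m3 at day 1.

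Between animals of the same group, 9 of the 10 genes varied together. Correlations were computed over the 72 libraries on log2 CPM after each group's mean was subtracted, so that no difference between groups enters them. Over the 45 pairs of genes the median Pearson's r was 0.56 (Spearman's rho 0.55), and 40 of 45 were positive. In permutations of the animals within groups, 37 of the 45 relations had an adjusted p under 0.05 by r, and 37 by rho. The strongest pair was Sftpa1 with Lamp3 (r = 0.82, rho = 0.81), followed by Sftpb with Slc34a2 (r = 0.78, rho = 0.72) and Slc34a2 with Napsa (r = 0.77, rho = 0.77). Each had a two-sided permutation p of 1e-05, the smallest that the permutations can give (adjusted p = 1.9e-05). The collectins Sftpa1 and Sftpd had r = 0.76 (rho = 0.73) and the hydrophobic Sftpb and Sftpc r = 0.73 (rho = 0.73), with the same p. Without the 2 animals farthest from the median of the first gene, the 5 values of r were 0.81, 0.76, 0.76, 0.74 and 0.71.

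Nkx2-1 stood apart. The 36 pairs among the other 9 genes all had positive r, from 0.33 (Sftpd with Abca3) to 0.82, with a median of 0.61. The 9 pairs with Nkx2-1 ran from -0.22 (Sftpc, rho = -0.22, permutation p = 0.0874, adjusted p = 0.103) to 0.32 (Abca3, rho = 0.36, permutation p = 0.0112, adjusted p = 0.014), with a median of -0.03. Abca3 was the only partner of Nkx2-1 that passed. Sftpb, whose window holds the NKX2-1 letters 2 times, had r = -0.08 with it (rho = -0.12, permutation p = 0.528, adjusted p = 0.552). Counting noise was larger for Nkx2-1 than for the rest. The SD between animals of a group was 0.21 on the log2 scale without the shallow libraries, and the part expected from counting alone was 0.09, while the other 9 genes had a counting part of 0.01 to 0.06 beside SDs of 0.12 to 0.27. The part of counting noise in the correlations of Nkx2-1 was not tested.

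**Figure D4:**
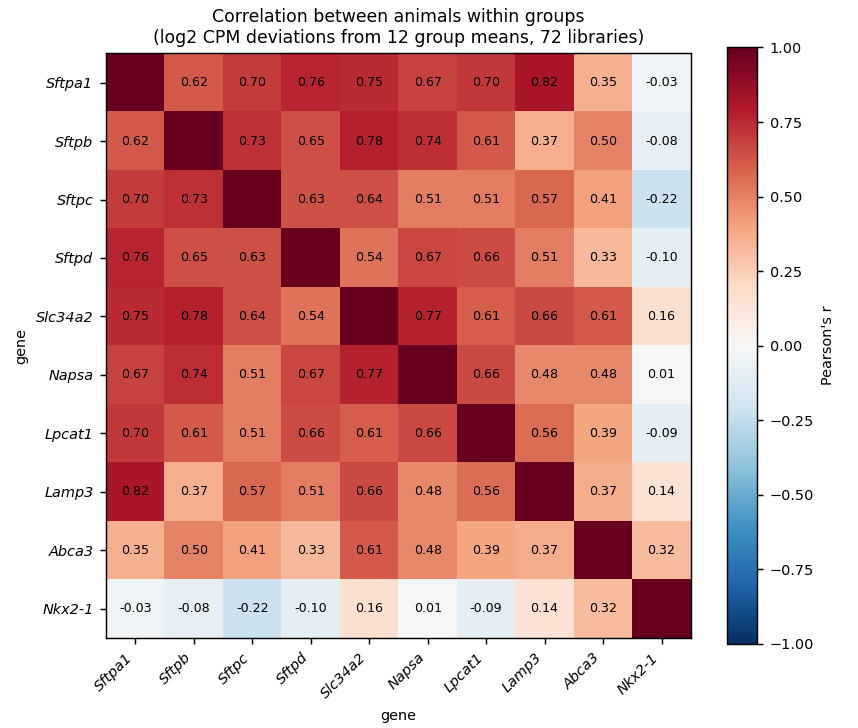
Pearson's r between animals of the same group for the 45 pairs of genes (both axes list the genes; colour scale from -1 to 1), over 72 libraries with the 12 group means removed. All 36 pairs without Nkx2-1 are positive, from 0.33 to 0.82, and the row of Nkx2-1 runs from -0.22 to 0.32.

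Most of the 45 pairs had a positive r at each day, with 38, 44 and 38 at days 1, 7 and 27. The median r of the 45 pairs was 0.58 at day 1, 0.50 at day 7 and 0.55 at day 27, over 24 libraries each, and 0.58 over all days without the 3 shallow libraries. With the log2 library total regressed out it remained 0.56. Among the pairs without Nkx2-1 all 36 were positive at days 1 and 7 and 35 at day 27, where Sftpd with Abca3 had -0.14. The pairs with Nkx2-1 differed more between days, with medians of -0.04, 0.29 and -0.30. Nkx2-1 stood less apart at day 7, where 8 of its 9 pairs were positive, with r up to 0.50.

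A typical gene of the table showed no such relation to the set. The median r of each member with all other 14955 genes lay between -0.05 and 0.03. Of its 9 fellow members, 5 (Napsa) to 8 (Slc34a2) fell in the top 1% of genes by r, that is among 149 genes, for each of the 9 genes. For Nkx2-1 it was 0 of 9. Abca3, with a median r of 0.39 to the other members, was the next most loosely tied, and Sftpa1, with 0.70, the most closely tied. In 13 of 72 animals at least 9 of the 10 genes were above their group means, and in 14 at least 9 were below. Animal 074 (200 ug/m3, day 7) had all 10 above, by a mean log2 value of 0.32, with Sftpc at 8808 CPM against 5342 to 6989 CPM in the other 5 of its group. Animal 006 (1000 ug/m3, day 1) had 9 of 10 below, by a mean of -0.33. Air groups held high and low animals as well, such as 051 (air L, day 1) with 10 genes above and 068 (air L, day 7) with 0. The highest mean values were those of exposed animals 074, 030 (0.26) and 059 (0.23). The lowest were those of exposed animals 006 and 076 (-0.27) and of animal 085 of air L at day 27 (-0.30). Animal 004 of air H at day 1 came next (-0.24), with a larger deviation than 059, so the share of exposed animals depends on the cut. Whether the spread differed with exposure was not tested.

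The genes most like the set, by r with the mean deviation of its members over the 72 libraries, were Npc2 (r = 0.86), Dram1 (0.77), Fetub (0.77), Ctsd (0.75) and Tmem163 (0.73). They are given without a p, since they are the 5 highest of all tested genes. Npc2 encodes a cholesterol carrier of the lysosome and Ctsd the lysosomal protease cathepsin D, and lamellar bodies are organelles related to lysosomes. Npc2 had r of 0.95, 0.82 and 0.82 at days 1, 7 and 27.

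Other genes of the surfactant pathway were followed as lists. The mean deviation of 14 genes of surfactant lipid supply, among them the fatty acid synthase Fasn (r = 0.71), had r = 0.80 with that of the 10 members. That of 12 other type II markers had 0.77, with the lysosomal protease Ctsh at 0.71. Fasn and Ctsh had the highest r of their lists. Transcription factors of the distal lung epithelium (12 genes) had 0.40, genes of surfactant recycling and clearance (8) 0.34 and those of lamellar body assembly, proprotein processing and secretion (14) 0.28. Markers of alveolar macrophages, which share the clearance of surfactant, had 0.40. Without the 3 shallow libraries the values were 0.64 for the transcription factors, 0.52 for the lamellar body genes and 0.52 for the macrophage markers. Taken singly, the genes of these lists did not all have a positive r with the members' mean. It was positive for 11 of 14 lipid supply genes (lowest -0.24) and 11 of 12 other type II markers (lowest -0.28). For transcription factors it was 10 of 12 (lowest -0.38), for recycling genes 6 of 8 (-0.37) and for lamellar body genes 9 of 14 (-0.55). The lists overlap in Etv5, Fabp5, Ctsh, Cebpa, Hopx and Abcg1. Type I pneumocyte markers had 0.20, dendritic cell markers 0.05, red blood cell markers 0.03 and cardiac muscle markers -0.00385. The lists of ciliated cells (-0.14), fibroblasts (-0.18), neutrophils (-0.19), club cells (-0.23), endothelium (-0.32) and smooth muscle (-0.33) had negative values. Some values changed sign between days. At days 1, 7 and 27 neutrophil markers had -0.54, -0.34 and 0.25, type I markers -0.22, 0.31 and 0.47, and dendritic cell markers 0.34, -0.30 and -0.03. Club cell and ciliated cell markers had 0.02 and 0.07 at day 27, cardiac muscle markers 0.17, and red blood cell markers 0.26 at day 1 and -0.09 at day 27. These correlations describe the libraries and carry no p. Only genes that passed the filter entered them, which left 8 of 10 macrophage, 7 of 8 fibroblast and 7 of 8 club cell markers. For dendritic cells it was 6 of 8 and for cardiac muscle 6 of 7.

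None of these lists held a gene that passed in the comparisons of exposed with air lungs. Over 832 tests of list genes in the 6 comparisons, 0 were called, 406 had positive and 426 negative values, where genes on 2 lists count under both. An unadjusted p under 0.05 was reached by 78 of the 832 (9.38%), pooled over the 6 comparisons. Of all genes, 9.69% reached it at 200 ug/m3 on day 27, and 3.41% to 7% in each of the other comparisons. The pooled share of the lists lay above that of all genes in every comparison except 200 ug/m3 at day 27. Whether the lists differ from all genes in this was not tested. For lipid supply 45 of 84 values were positive, for other type II markers 32 of 72 and for alveolar macrophage markers 26 of 48. Red blood cell markers were negative in 26 of 30 cases, beside 49.5% to 50.3% of all genes in the 6 comparisons. How far these markers vary together was not tested, so the signs may not be separate observations. Averaged over the 6 comparisons, the median of the lipid supply genes was 0.01, that of other type II markers -0.02 and that of alveolar macrophage markers -0.00336, beside -0.01 over all genes.

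At day 7 genes of these lists were called between the air sets in both directions, as were 10.3% of all genes higher and 15.2% lower in air H. Counts near those shares say nothing of a list. Of 12 other type II markers 5 were lower in air H, led by the tight junction gene Cldn18 (-2.10, SE 0.16, adjusted p = 1.6e-09) and the mucin gene Muc1 (-1.14, adjusted p = 0.000174). In the same list 1 was higher, the fatty acid binding protein gene Fabp5 (1.35, adjusted p = 1.85e-05). Of 14 lipid supply genes 5 were higher and 0 lower, with the phospholipid synthesis gene Cept1 at 0.29 (adjusted p = 0.00292) beside Fabp5. Of 14 lamellar body genes 4 were lower, among them Vamp2 (-1.45, adjusted p = 2.47e-09) and Hps4 (-0.72, adjusted p = 0.000258), and 2 were higher, Anxa7 (0.23) and Snap23 (0.24). Of 12 transcription factors 3 were lower, with Foxa1 at -0.88 (adjusted p = 0.00095) and Elf5 at -0.85 (adjusted p = 0.00115), and 1 was higher, Hopx (0.31). Of 8 recycling genes 2 were lower, Csf2rb (-0.92, adjusted p = 1.43e-06) and Csf2 (-1.02, adjusted p = 0.0224), and 1 higher, Prdx6 (0.16).

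Markers of other cell types were counted in the same comparison, against the same 10.3% higher and 15.2% lower of all genes. Of the 11 cell type lists, that of type I markers had the largest share called. Of 10 type I markers 7 were lower in air H, with Cav1 at -0.36 and Aqp5 at -0.44, and 1 was higher, Hopx. Their summed level ran from 5779 to 6190 CPM in air H and from 6836 to 7426 CPM in air L, without overlap. Of 8 endothelial markers 2 were lower, Kdr (-1.10) and Cdh5 (-0.60), and 1 higher, Cldn5 (0.49), and their sum ran from 3982 to 4520 CPM against 4608 to 5162 CPM. The 2 neutrophil markers of 7 that were higher were S100a8 (1.05) and S100a9 (0.87), with sums of 88.2 to 300.3 CPM against 85.8 to 125 CPM. Of the rest, 2 of 7 smooth muscle markers were higher (Tagln 0.47, Des 0.45), and 2 of 7 club cell markers were higher (Cyp4b1 0.22, Aldh1a1 0.29) and 1 lower (Scgb1a1 -0.79). Of 8 macrophage markers 1 was lower (Cd68 -0.35), of 7 fibroblast markers 2 were lower (Col1a1 -1.22, Fn1 -0.35) and 1 higher (Col3a1 0.27), and of 6 dendritic cell markers 1 was lower (Zbtb46 -0.78) and 1 higher (Ccr7 0.44). Of 6 red blood cell markers 1 was higher (Hbb 0.60) and 1 lower (Hba1 -0.46), 0 of 10 ciliated cell markers were called (Tppp3, with the smallest p, had 0.20), and so were 0 of 6 cardiac muscle markers (Actc1 had 0.57). The macrophage marker Chi3l3 and the cardiac marker Nppa had no count in any library. Other markers had no count in whole groups, among them the macrophage marker Marco in both air groups of day 27. The fibroblast marker Col1a2 and the club cell marker Cckar had none in air L of day 1. The summed level of the 10 members overlapped, at 16119 to 19552 CPM in air H and 16004 to 21619 CPM in air L. Most of that sum is Sftpa1 and Sftpc, with means of 4908 and 6860 CPM in air H of a mean sum of 17596 CPM. Nkx2-1 adds 71.8 CPM there, so the sum says little of the called genes. The part of these marker levels in the differences of Nkx2-1, Slc34a2 and Sftpb was not tested.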

How the data were processed

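RNA from a lung piece of each of 72 rats was depleted of ribosomal RNA and sequenced as stranded total RNA libraries, per the labels' protocols. The authors deposited 1 table of raw counts per gene symbol for the 72 animals. HISAT2 2.1.0, HTSeq 0.6.1, Trimmomatic 0.35, SAMtools 1.8, bcl2fastq 2.19 and the build Rnor 6.0 are named in the submitters' processing notes. How strand was treated in counting, and with which annotation, is not given in the sources used here, and reads of overlapping and antisense genes cannot be told apart.

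Groups were taken from the sample titles, 6 animals in each of 12. No libraries were identical among 180 pairs within groups. Counts were analysed in R 4.3.3 with edgeR 4.0.16 (TMM factors, filterByExpr by group, robust quasi-likelihood F test, Benjamini-Hochberg adjustment over all genes of a fit). Exposure and H minus L comparisons were fitted on the 24 libraries of a day (12304, 14331 and 14761 genes at days 1, 7 and 27). The mean effect, the day contrasts and the interactions were fitted on all 72 (14956 genes). Standard errors and 95% intervals follow from the quasi-likelihood F statistic. The correlations used log2 CPM with a prior count of 2, minus the group mean, and 100000 permutations within groups, two-sided, adjusted over 45 pairs. On simulated counts for 1000 ug/m3 minus air H, with 200 genes changed, the fit recovered 85%, 93% and 96% of changes of 1 on the log2 scale at days 1, 7 and 27 (12304, 14331 and 14761 genes), and 47%, 73% and 64% of changes of 0.5. False calls were 11 of 143, 7 of 173 and 10 of 170 calls. The changed genes were drawn from those above a minimum mean CPM. Recovery with fewer changed genes, which tightens the adjusted threshold, was not simulated.

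The 10 members and 16 other gene lists (160 entries in all, 4 matched by a RefSeq synonym) were chosen with earlier results of these data known. All members were named in every comparison. From each other list up to 2 genes per direction with the smallest p among those called were named, otherwise the gene with the smallest p. Alternatives were RLE factors, library totals, 2 other filters, DESeq2 1.42.0, limma-voom (limma 3.58.1), leaving out the shallow libraries, a fit of all libraries, the number series of the H animals as a covariate, and both air groups as the control.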

Additional observations from a re-analysis of the deposited data

Results flagged for a closer look

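In 7 of 120 combinations of gene and group, 1 animal stood apart from the other 5 by more than Dixon's 95% critical value for 6 animals. Chance flags about 1 in 20 groups. These 7 values came from 6 animals. After 1000 ug/m3 at day 27, animal 022 was highest for Sftpb at 2526 CPM (next 2011) and for Slc34a2 at 2282 CPM (next 1773). Animal 089 was lowest for Sftpc after 200 ug/m3 at day 27, at 4399 CPM (next 5462). Animal 085 was lowest for Sftpd in air L of day 27, at 465 CPM (next 707). For Lpcat1, animal 062 was lowest after 200 ug/m3 at day 1, at 327 CPM (next 428), and animal 038 was highest after 1000 ug/m3 at day 7, at 543 CPM (next 446). Animal 074 was highest for Lamp3 after 200 ug/m3 at day 7, at 582 CPM (next 467). None of the 6 is a shallow library.

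The difference between air H and air L changed between days by a test of the interaction. From day 1 to day 7 it changed by -0.41 for Slc34a2 (adjusted p = 0.0237). From day 7 to day 27 it changed by 0.34 for Sftpb (adjusted p = 0.0414), 0.28 for Abca3 (adjusted p = 0.0207), 0.72 for Slc34a2 (adjusted p = 1.14e-05) and 1.03 for Nkx2-1 (adjusted p = 1.97e-07), all by edgeR's quasi-likelihood test. After 1000 ug/m3 Nkx2-1 was above the air H mean in 6 of 6 animals at day 1 and below it in 6 of 6 at day 27. The ratio of exposed to air means at day 1 was 1.63 times that at day 27, and this difference was not tested.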

How the results depend on the processing

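Over 1850 recomputed values of single genes, 1748 kept direction and side of the threshold, 75 changed sign while not called, 9 gained and 18 lost a call, and 0 called values reversed. Of 185 recomputed counts of called members, 163 equalled the reported count, 13 differed from it by 1 and stayed within 1.5 times, and 9 differed by more. Of the 13, 5 were for air L from day 1 to 7, where 3 in place of 4 members were called. The 9 follow. Against both air groups pooled, 1 member was called for 1000 ug/m3 at day 7 (Nkx2-1). With DESeq2, 1 was called for 200 ug/m3 at day 27 (Sftpa1). With no filter on low counts, 0 were called for air H minus air L at day 27, 2 for air L from day 7 to 27, 0 for the interaction from day 1 to 7 and 2 for that from day 7 to 27. With library totals, 5 were called for air H from day 1 to 7, where Sftpd (0.43, adjusted p = 0.0223) and Abca3 (0.18, adjusted p = 0.0265) were added, and 2 for the interaction from day 7 to 27. With at least 1 CPM in 6 libraries, 2 were called for air L from day 7 to 27. The cause of these changes was not tested. The median correlation was 0.50 at day 7 alone and lay between 0.55 and 0.58 in the 7 other settings. Calls gained elsewhere were Abca3 for air H minus air L at day 7 in the fit of all libraries (-0.18, adjusted p = 0.0494) and, with limma-voom, Sftpd for 1000 minus 200 ug/m3 at day 7 (0.32, adjusted p = 0.0446), Sftpd for air H from day 1 to 7 (0.38, adjusted p = 0.0411) and Sftpc for air L from day 7 to 27 (-0.33, adjusted p = 0.0444). With at least 1 CPM in 6 libraries Sftpd passed for air H from day 1 to 7 (0.39, adjusted p = 0.0485).

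Counts over all genes moved by more than 1.5 times in these cases. Against both air groups pooled, 1343 genes were called at 1000 ug/m3 and 1184 at 200 ug/m3 at day 7, where the single air group gave 0 and 1. DESeq2 called 1, 5, 6 and 11 genes for 200 ug/m3 at days 1 and 7, 1000 ug/m3 at day 27 and 200 ug/m3 at day 27, where edgeR called 0, 1, 0 and 0, and for the dose difference 2, 1 and 34 where edgeR called 1, 0 and 0. The fit of all libraries called 4 for 200 ug/m3 at day 7 and 0, 1 and 22 for the dose difference. For air H minus air L at day 1 the count of 207 became 129 with the 1 CPM filter, 446 with DESeq2 and 1016 in the fit of all libraries. For 1000 minus 200 ug/m3 at day 1 the count of 0 became 2 with the 1 CPM filter, 6 with no filter, 19 with DESeq2 and 150 in the fit of all libraries, and at day 27 it became 2 with DESeq2 and 1 without the shallow libraries. The mean effect, with 2 calls, had 0 with no filter or limma-voom, and 1 without the shallow libraries or with the number series as a covariate. With library totals the dose difference at day 1 had 2.

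No paired analysis was possible because no animal number occurs in more than 1 group. The H animals carry numbers of 2 series whose meaning is not given. Depth limits Nkx2-1 most, with 6 and 12 counts in libraries 045 and 037, and 6 animals per group limit every comparison.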
